A study of Mus musculus with 16 samples.

Results

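The mRNAs of 10 CC chemokine genes were followed through acute LPS activation and glucocorticoid treatment of macrophages. The set was chosen by gene symbol. It holds the ligands Ccl2, Ccl3, Ccl4, Ccl5, Ccl6, Ccl7 and Ccl9, the signalling receptors Ccr1 and Ccr2 and the atypical receptor Ccrl2, and all 10 are among the 9614 genes of the deposited table. The 16 RNA-seq libraries came from bone-marrow-derived macrophages (BMDM), which are grown in culture from marrow precursors, of 3 WT and 3 NELF-B KO mice. WT mice were LysM-Cre:NELF-B wt/wt and KO mice LysM-Cre:NELF-B fl/fl, so both genotypes carried LysM-Cre. This Cre is active in myeloid cells and in the KO removes the floxed exon of Nelfb. All were male C57BL/6 mice of 8 weeks by their labels. BMDM of each genotype were left untreated (U, n = 2), given LPS at 10 ng/ml for 1 hr (n = 3) or given that LPS together with dexamethasone (Dex) at 100 nM for 1 hr (n = 3). The letters A, B and C name the mice of a genotype here (WT A is mouse A of the WT), and mice C of both genotypes had no untreated library.

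CC chemokines are small secreted proteins that draw leukocytes along a gradient by binding G protein-coupled receptors. CCL2 and CCL7 attract monocytes through CCR2, whereas CCL3 and CCL5 act in part through CCR1, as do mouse CCL6 and CCL9. Resident and recruited macrophages release several of these ligands within hours of meeting bacterial products, and glucocorticoids are known to restrain that release. NELF holds RNA polymerase II in a paused state shortly after the start of transcription.

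All 7 ligand genes lie on chromosome 11 of GRCm38 (GENCODE vM21) and encode proteins. Ccl2 (82035571 to 82037453, plus strand) and Ccl7 (82045712 to 82047525, plus strand) are neighbours 8.3 kb apart. A second group holds Ccl5 (83525778 to 83530518, minus strand), Ccl9 (83572919 to 83578636, minus strand), Ccl6 (83587882 to 83593087, minus strand), Ccl3 (83647844 to 83649355, minus strand) and Ccl4 (83662584 to 83664683, plus strand). Within it, Ccl9 and Ccl6 are 9.2 kb apart and Ccl3 and Ccl4 13.2 kb apart. On chromosome 9, Ccrl2 spans 111054486 to 111057519 (minus strand), Ccr1 123962124 to 123968692 (minus strand) and Ccr2 124101950 to 124113557 (plus strand). RefSeq draws Ccl4 from 83648624 to 83664683, a span that runs into Ccl3 (83647843 to 83649378) on the opposite strand. Whether the counting used strand is not given in the sources used here, so reads in that overlap cannot be assigned with certainty.

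Each library held 25030895 to 49730150 reads on the 9614 genes. These depths were recovered from the steps of the low values, and 100.0% of the values under 3 CPM (read counts scaled to the depth of the library) came out as whole reads within a tolerance of 0.1 read. The fewest reads behind a value of Ccr2 were 43 and behind a value of Ccl5 77, both in untreated WT BMDM. Nelfb, the deleted gene, was 5.59 to 6.21 log2 CPM in the 8 WT libraries and 3.27 to 4.38 in the 8 KO libraries, with no overlap. The untreated library of WT mouse A stood apart, at r = 0.83 to 0.909 across genes with the other libraries against 0.924 to 0.993 among those, and the LPS responses in WT are therefore also given without it. Of 8 macrophage markers looked for, 7 were in the table, led by Csf1r (11.36 to 11.93 log2 CPM) and Cd68 (10.03 to 10.89). Adgre1 was not among the 9614 genes. Lyz2, whose promoter drives LysM-Cre, was at 4.3 to 6.33 log2 CPM. None of 6 lymphocyte markers and none of 7 eosinophil, basophil and mast cell markers was in the table.

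The first comparison asked which members responded to 1 hr of LPS. In WT BMDM 8 of the 10 members rose (over 1.5-fold with limma at an FDR under 0.1, the rate of false calls), against 11.8% of all 9614 genes. The median log2 fold change of the members was 3.79, and that of all genes 0.01. In bulk RNA of this kind, a change in the number of expressing cells and a change in RNA per cell cannot be told apart. The 8 were the 6 ligand genes other than Ccl6, with Ccrl2 and Ccr1, while Ccl6 and Ccr2 did not pass. Without the untreated library of WT mouse A, 7 members rose, against 4.19% of all genes, and Ccr1 was the member lost. Centring each library on its median gene moved the split of all genes from 1132 higher and 876 lower to 893 higher and 1261 lower, and 7 members rose, again without Ccr1. Within the same mouse, the level was higher after LPS in 4 of 4 mice for each of the 8, a pattern held by 21.9% of all genes.

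**Figure D1:**
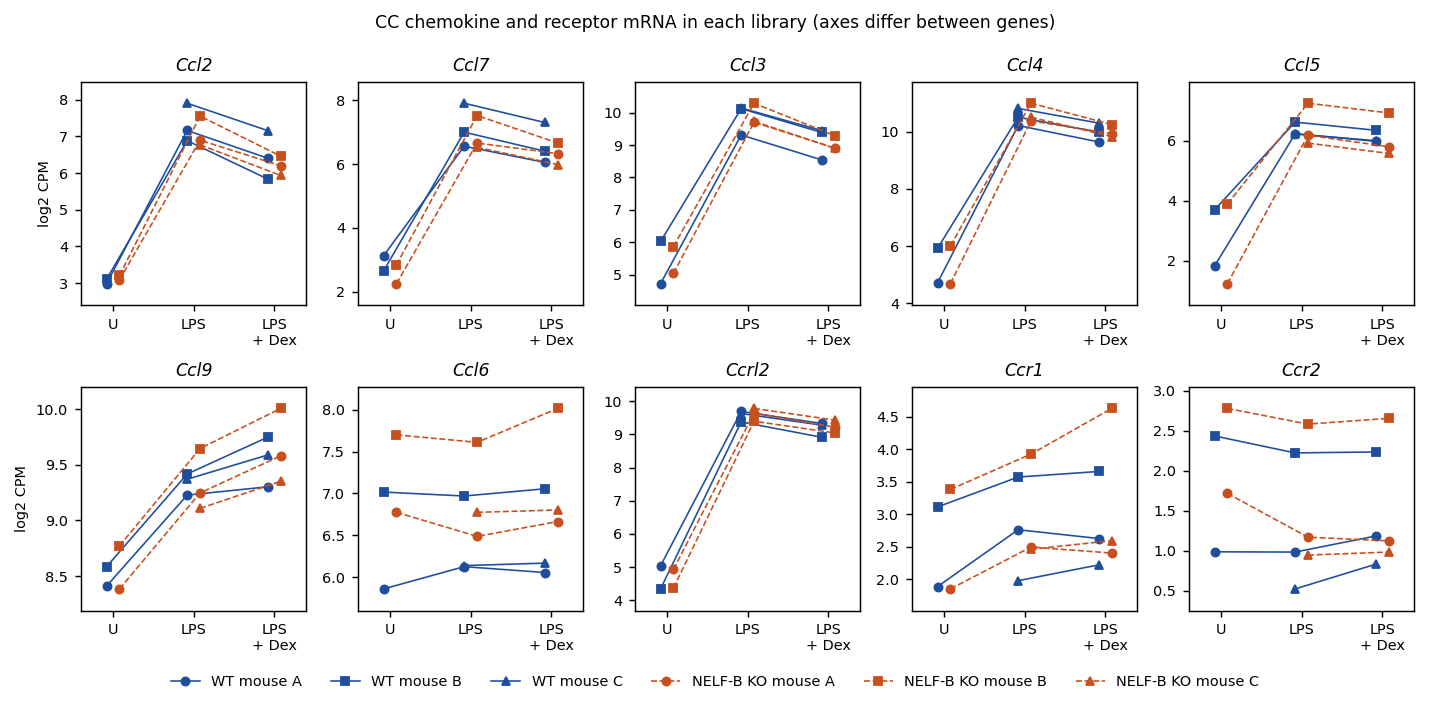
Level of each member (log2 CPM, vertical axes differ between genes) in untreated, LPS-treated and LPS + Dex-treated BMDM. Each line is a mouse, solid blue for WT and dashed orange for NELF-B KO, with circles, squares and triangles for mice A, B and C. Ccl2, Ccl7, Ccl3, Ccl4, Ccl5 and Ccrl2 climbed steeply with LPS, while the Ccl6 and Ccr2 lines show no common rise and mice B lie highest.

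Ccl2, the main monocyte attractant that acts through CCR2, was at 2.98 and 3.11 log2 CPM in untreated WT BMDM of A and B. After LPS it was 7.16, 6.88 and 7.90 log2 CPM in WT A, B and C. The LPS-treated libraries were all far above the untreated ones, and WT mouse C was the highest. The log2 fold change was 3.95 (SE 0.16, limma adjusted p = 8.45e-07). Ccl7, its neighbour on the chromosome and a ligand of the same receptor, was 3.13 and 2.65 log2 CPM untreated and 6.56, 7.001 and 7.91 after LPS in the same mice. Again mouse C was highest and the groups did not overlap. Its log2 fold change was 3.90 (SE 0.20, limma adjusted p = 3.10e-06).

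Ccl3 and Ccl4, which encode the macrophage inflammatory proteins 1-alpha and 1-beta, reached the highest levels of the ligands per length. In untreated WT BMDM Ccl3 was 4.72 (A) and 6.02 (B) log2 CPM, and after LPS it was 9.31, 10.12 and 10.14 in A, B and C. The corresponding Ccl4 values were 4.71 and 5.92 untreated and 10.22, 10.51 and 10.82 after LPS. For both genes untreated mouse B started over 1 log2 unit above mouse A, a gap that was smaller after LPS. The log2 fold changes were 4.34 (SE 0.13, limma adjusted p = 1.13e-07) for Ccl3 and 5.04 (SE 0.25, limma adjusted p = 2.43e-06) for Ccl4. Within mice, Ccl4 was 24.1- to 51.9-fold higher after LPS and Ccl3 17.2- to 25.4-fold, over the 4 mice of both genotypes with untreated cells.

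Ccl5 (RANTES), an attractant of T cells and monocytes, had the widest range of fold changes between mice. It was 1.82 (A) and 3.69 (B) log2 CPM in untreated WT BMDM and 1.23 (A) and 3.89 (B) in untreated KO BMDM. After LPS it was 6.23, 6.62 and 6.23 in WT A, B and C. The induction was 21.3-fold in WT mouse A and 7.64-fold in WT mouse B, and 31.1-fold in KO mouse A and 10.3-fold in KO mouse B. The mice with the low starting level thus had the larger fold change in both genotypes, whereas the levels after LPS were closer together. The log2 fold change in WT was 3.67 (SE 0.41, limma adjusted p = 0.000554). Without the untreated library of WT mouse A it was 2.92 (SE 0.34).

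Ccl9 and Ccl6 belong to a rodent group of CCR1 ligands and behaved unlike the rest. Ccl9 was already abundant, at 8.41 and 8.58 log2 CPM in untreated WT BMDM, and stood at 9.23, 9.42 and 9.37 after LPS in WT A, B and C. Its rise was small and even, 1.76- to 1.83-fold in the 4 mice, with a log2 fold change of 0.82 in WT (SE 0.08, limma adjusted p = 0.000208). Ccl6 was 5.86 and 7.02 log2 CPM untreated and 6.13, 6.97 and 6.14 after LPS in WT. The mice differed by more than the treatments did. The log2 fold change of Ccl6 was 0.11 (SE 0.12, limma adjusted p = 0.464).

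Among the receptors, Ccrl2 had the largest induction. CCRL2 binds chemerin and presents it to other cells but does not signal as the classical receptors do. Ccrl2 was 5.04 and 4.34 log2 CPM in untreated WT BMDM and 9.69, 9.38 and 9.63 after LPS in A, B and C, a log2 fold change of 4.83 (SE 0.11, limma adjusted p = 2.68e-08). In single mice the rise was 25.1- to 32.7-fold. Ccr1, a receptor for CCL3, CCL5, CCL6 and CCL9, was scarce, at 1.89 and 3.11 log2 CPM untreated and 2.76, 3.57 and 1.98 after LPS, and the groups overlapped. Its log2 fold change was 0.62 (SE 0.19, limma adjusted p = 0.0587), and without the untreated library of WT mouse A it was 0.47 (SE 0.21, limma adjusted p = 0.175). Ccr1 passed in 6 of 15 alternative analyses in WT. Ccr2, the receptor of CCL2 and CCL7, was the lowest member per kb of exon and stood at 0.98 and 2.43 log2 CPM untreated and 0.98, 2.22 and 0.52 after LPS. The log2 fold change of Ccr2 was -0.14 (SE 0.15, limma adjusted p = 0.458).

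The same 7 members other than Ccr1 rose in NELF-B KO BMDM, against 4.04% of all genes. The median log2 fold change was 4.11 over the members and -0.01 over all genes. The largest was that of Ccl4, 5.36 (SE 0.25, limma adjusted p = 1.45e-06), followed by Ccrl2 with 4.86 (SE 0.11, limma adjusted p = 2.03e-08). Ccl7 and Ccl3 rose by 4.54 and 4.53 on the log2 scale, Ccl5 by 4.16, Ccl2 by 4.06 and Ccl9 by 0.89. In KO A, B and C, Ccl2 was 6.90, 7.55 and 6.77 log2 CPM after LPS, from 3.09 and 3.21 in untreated mice A and B. Ccr1 had the same estimate as in WT, 0.62 (SE 0.19), and a limma adjusted p of 0.104. Ccr2 was -0.38 (SE 0.15, limma adjusted p = 0.274) and Ccl6 -0.14 (SE 0.12, limma adjusted p = 0.792).

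The difference in LPS response between the genotypes was tested as an interaction. In limma's test 0 members and 0 of all genes (0.0%) passed an FDR of 0.1, while 396 of all genes, none of them a member, had an unadjusted p under 0.05. The largest estimate among the members was that of Ccl7, whose log2 fold change was 0.64 larger in the KO (SE 0.28, limma adjusted p = 0.414). Without the untreated library of WT mouse A this was 0.20 (SE 0.14), while the estimate of Ccl5 went from 0.48 (SE 0.59) to 1.23 (SE 0.42, limma adjusted p = 0.639). The interaction estimates of these genes thus turned on a single untreated library. Without WT mouse B, when that library alone stands for untreated WT BMDM, Ccl6 and Ccl7 passed, as did 77.7% of all genes.

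Per kb of exon, which allows levels of different genes to be compared, the order of the members changed with LPS. In the 4 untreated libraries Ccl9 was highest, with a median of 6.89 log2 CPM per kb (6.78 to 7.17), followed by Ccl6 at 6.05 (5.02 to 6.86), Ccl4 at 5.92 (5.28 to 6.61) and Ccl3 at 5.84 (5.10 to 6.41). The ranges of Ccl6, Ccl4 and Ccl3 overlapped. Ccrl2, Ccl7, Ccl2 and Ccl5 followed with medians of 3.28 to 2.81 and overlapping ranges, then Ccr1 at 1.00 and Ccr2 at -0.68. The ranges of Ccl5 (1.285 to 3.95) and Ccr1 (0.35 to 1.882) overlapped. In the 6 LPS-treated libraries Ccl4 led with a median of 11.11 log2 CPM per kb (10.82 to 11.60), above Ccl3 at 10.31 (9.70 to 10.68) and Ccrl2 at 8.26 (8.00 to 8.40) with no overlap between these 3. Ccl9, Ccl7, Ccl2, Ccl5 and Ccl6 followed with medians of 7.70 to 5.79, each overlapping its neighbour. After LPS, Ccr1 at 1.13 (0.48 to 2.43) and Ccr2 at -1.68 (-2.24 to -0.18) were far below every ligand.

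The ligand mRNA pool changed in size and make-up. The summed level of the 7 ligands had a median of 336 CPM per kb in untreated, 4081 in LPS-treated and 2826 in LPS + Dex-treated libraries. Ccl9 made up 30.8% to 46.6% of that sum in untreated BMDM and 4.295% to 6.16% after LPS. Ccl6 went from 13.5% to 24.9% untreated to 0.776% to 1.92% after LPS, although its own level had not passed the test. Ccl4 made up 14.5% to 22.7% untreated and 51.1% to 57.6% after LPS, so that it was the largest part in each LPS-treated library. Ccl3 contributed 14.3% to 21.0% untreated and 26.0% to 33.7% after LPS. These shares rest on exon lengths of the annotation, which may differ from the gene models the authors counted.

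**Figure D2:**
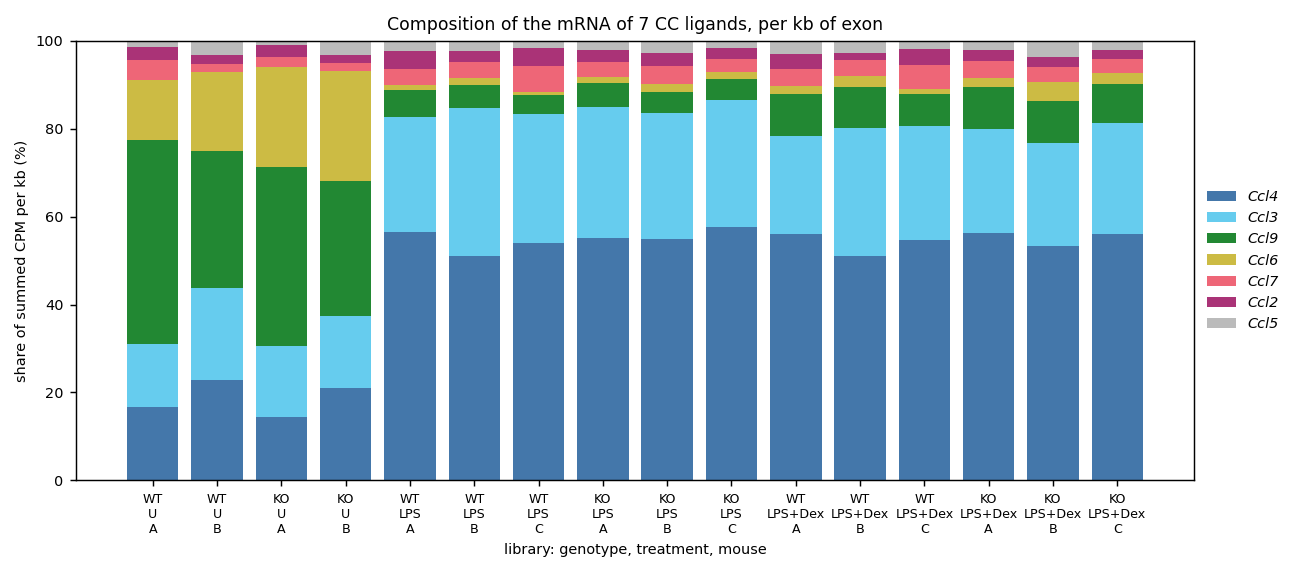
Stacked bars give the share (%) of each of 7 CC ligands in their summed CPM per kb of exon, for each of the 16 libraries in order of treatment, genotype and mouse. Ccl9 (green) and Ccl6 (yellow) hold much of each untreated bar, and Ccl4 and Ccl3 (blues) most of each LPS and LPS + Dex bar.

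RefSeq promoter entries (GRCm38.p6, 250 bases before to 50 after the start) were found for 6 members. Ccl2, Ccl4, Ccl5 and Ccl7, which rose with LPS in both genotypes, had no entry and were not searched. The 100 bases before the start are printed, 5′ to 3′ on the gene's strand, for Ccrl2, Ccl9 and Ccl3, which rose with LPS in both genotypes, for Ccr1, which passed in WT alone, and for Ccl6, which did not pass, to show the letters upstream of members with different LPS changes. Capitals mark matches to the 10-base NF-kappaB (kappaB) motif and to the AP-1 motif TGANTCA, searched on both strands.
Ccrl2 (chr9:111057519-111057618, minus strand): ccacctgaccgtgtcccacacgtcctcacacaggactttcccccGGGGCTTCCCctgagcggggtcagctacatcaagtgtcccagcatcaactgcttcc
Ccl9 (chr11:83578637-83578736, minus strand): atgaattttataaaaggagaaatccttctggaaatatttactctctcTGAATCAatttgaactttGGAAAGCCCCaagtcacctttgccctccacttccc
Ccr1 (chr9:123968693-123968792, minus strand): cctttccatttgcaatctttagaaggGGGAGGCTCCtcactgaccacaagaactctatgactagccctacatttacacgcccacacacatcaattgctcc
Ccl3 (chr11:83649379-83649478, minus strand): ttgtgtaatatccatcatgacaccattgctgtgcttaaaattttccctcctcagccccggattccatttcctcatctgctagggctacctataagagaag
Ccl6 (chr11:83593088-83593187, minus strand): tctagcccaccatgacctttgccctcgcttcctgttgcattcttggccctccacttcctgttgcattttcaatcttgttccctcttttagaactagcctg
A kappaB match began 56 bases before the start in Ccrl2, 35 bases before it in Ccl9 and 74 bases before it in Ccr1. Ccl9 also had an AP-1 match, 53 bases before the start, and the matches do not overlap. In the 300-base windows of Ccl3, Ccl6 and Ccr2 neither motif occurred, and the C/EBP motif TTGCNNAA occurred in none of the 6. Over all 27018 RefSeq windows of the same length, 8.18% held the kappaB motif, 7.94% the AP-1 motif and 10.76% the C/EBP motif. Of the 3 starts that RefSeq gives for Ccrl2, the first was used. A match of letters is a description of the sequence and not of binding.

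The second comparison asked how Dex altered the LPS-induced levels in cells of the same animal. In WT BMDM 3 members fell, Ccl2, Ccl3 and Ccrl2 (over 1.3-fold lower at an FDR under 0.1 in limma's test), against 1.22% of all genes. In NELF-B KO BMDM 2 members fell, Ccl2 and Ccl3, against 1.45% of all genes. The median log2 change over the 10 members was -0.32 in WT and -0.36 in KO, and over all genes -0.01 in WT and -0.0023 in KO. With only the 12 LPS and LPS + Dex libraries in the fit, Ccl4 and Ccl7 passed as well in both genotypes, which gave 5 members in WT (2.17% of all genes) and 4 in KO (2.55%). Without the mouse as a block, 0 members passed in either genotype. Without WT mouse C 0 members passed in WT, and without KO mouse A or B Ccl2 did not pass in KO.

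Ccl2 was 6.40, 5.84 and 7.16 log2 CPM with LPS + Dex in WT A, B and C, and 6.20, 6.46 and 5.94 in KO A, B and C. In WT the LPS and LPS + Dex groups overlapped and in KO they did not, and each mouse was lower with Dex. Its log2 change was -0.85 in WT (SE 0.14, limma adjusted p = 0.0140) and -0.87 in KO (SE 0.14, limma adjusted p = 0.0114). Across the 6 mice Ccl2 kept 46.9% to 61.7% of its LPS level, with a median of 57.7%.

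Ccl3 was 8.54, 9.39 and 9.44 log2 CPM with LPS + Dex in WT A, B and C and 8.90, 9.29 and 8.90 in KO A, B and C. In KO the LPS + Dex libraries lay below all LPS libraries (9.70, 10.29 and 9.73), whereas in WT mouse A under LPS was below mice B and C under LPS + Dex. The log2 change of Ccl3 was -0.73 in WT (SE 0.11, limma adjusted p = 0.0114) and -0.88 in KO (SE 0.11, limma adjusted p = 0.00428). The mice kept 49.9% to 61.6% of the LPS level.

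With Dex, Ccl4 and Ccl7 were lower in 6 of 6 mice but did not pass in the fit of all 16 libraries. Ccl4, a neighbour of Ccl3, kept 59.6% to 73.5% of its LPS level. Its log2 changes were -0.54 in WT (SE 0.21, limma adjusted p = 0.533) and -0.62 in KO (SE 0.21, limma adjusted p = 0.31). With the 12 libraries the same estimates had an SE of 0.05 (limma adjusted p = 7.81e-06 in WT and 1.74e-06 in KO). The untreated libraries do not enter the Dex estimates, but their spread enters the SE in the fit of all 16 libraries. Ccl7 kept 55.0% to 79.6% and had log2 changes of -0.57 in WT and -0.58 in KO (SE 0.17 in both, limma adjusted p = 0.222 and 0.189). In the 12-library fit its SE was 0.07 and its limma adjusted p 0.000106 in WT and 8.61e-05 in KO.

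Ccrl2 and Ccl5 had the smallest decreases. Ccrl2 was 9.33, 8.91 and 9.28 log2 CPM with LPS + Dex in WT A, B and C, below each WT LPS library, and 9.22, 9.04 and 9.43 in KO A, B and C. It kept 72.5% to 78.5% of its LPS level, the narrowest range of the lowered members. The log2 change was -0.39 in WT (SE 0.09, limma adjusted p = 0.0981) and -0.38 in KO (SE 0.09, limma adjusted p = 0.104). The WT value lay close to the threshold and did not pass without WT mouse B, WT mouse C or any of the KO mice, nor with each library centred on its median gene. Ccl5 kept 76.6% to 85.5% and was lower in 6 of 6 mice, with log2 changes of -0.25 in WT and -0.35 in KO (SE 0.35 in both). With the 12 libraries the SE of Ccl5 was 0.03 and its limma adjusted p was 0.000239 in WT and 1.15e-05 in KO, but the changes were under 1.3-fold.

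Ccl9 went the other way. It was higher with LPS + Dex than with LPS in 6 of 6 mice, at 105% to 128% of the LPS level, as were 9.16% of all genes. The values with LPS + Dex were 9.30, 9.75 and 9.59 log2 CPM in WT A, B and C and 9.58, 10.01 and 9.35 in KO A, B and C. Its log2 change was 0.21 in WT (SE 0.07, limma adjusted p = 0.306) and 0.31 in KO (SE 0.07, limma adjusted p = 0.0559), under 1.3-fold in both. By comparison, 6 members were lower in 6 of 6 mice, a pattern held by 10.4% of all genes. Ccl6 and Ccr2 were higher in 5 of 6 mice and Ccr1 in 4 of 6, with mean log2 changes of 0.11 (SD 0.17), 0.10 (SD 0.13) and 0.16 (SD 0.30). Ccl9 then made up 7.21% to 9.70% of the ligand pool with LPS + Dex, above its share in every LPS library.

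**Figure D3:**
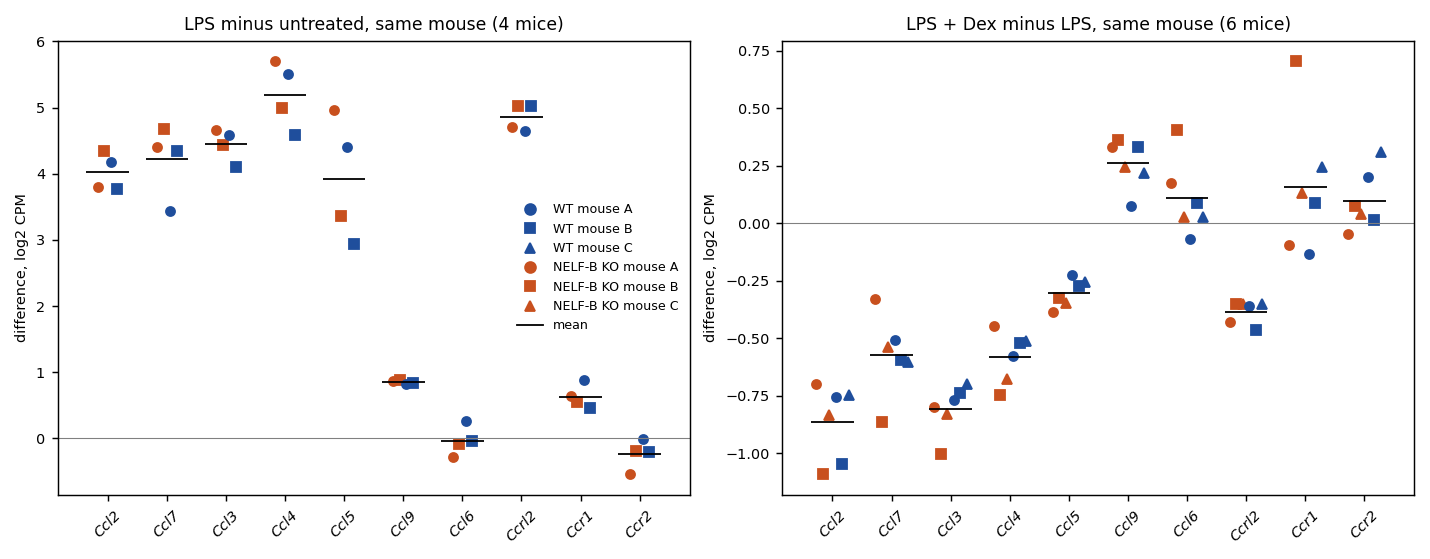
Change within each mouse (difference of log2 CPM) from untreated to LPS (left, 4 mice) and from LPS to LPS + Dex (right, 6 mice). Symbols are mice (blue WT, orange NELF-B KO, shapes as letters A to C) and the black line is their mean. With Dex, Ccl2, Ccl7, Ccl3, Ccl4, Ccl5 and Ccrl2 lie below 0 in all 6 mice and Ccl9 above 0 in all 6.

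No member had a Dex change that differed detectably between the genotypes. As an interaction in limma's test 0 members and 0.0% of all genes passed an FDR of 0.1. Of all genes 27, none of them a member, had an unadjusted p under 0.05. That is a smaller share than the 0.05 expected if no gene differed, so this fit was conservative and its lack of calls says little. The estimates for the members ran from -0.15 for Ccr2 (SE 0.19) to 0.19 for Ccl6 (SE 0.14). By RT-qPCR, another assay of mRNA, the paper reports weaker Dex repression of Ccl2 in the KO. In these libraries the difference was -0.02 (SE 0.19) for Ccl2 and -0.14 (SE 0.16) for Ccl3. In the fit of the 12 libraries the SEs of these were 0.10 and 0.06, and limma's adjusted p was 0.971 and 0.683. There 2 of all genes passed, none of them a member.

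The third comparison set NELF-B KO against WT within each treatment. By limma's test 0 members differed over 1.5-fold at an FDR under 0.05 in untreated, LPS-treated or LPS + Dex-treated BMDM, and the same held for all genes (0.0% in each). Nelfb, the deleted gene, is among those genes and was not called either. The test thus missed a known difference, and its 0 does not show equal levels. The paper reports genes that differed between the genotypes under LPS + Dex at this fold and FDR. At an unadjusted p under 0.05 with the same fold, 37, 339 and 361 of all genes but 0 members passed. The WT and KO values of each member overlapped in each treatment, while they did not overlap for 29.4% of all genes untreated, 13.7% under LPS and 17.8% under LPS + Dex. Ccl2 differed by -0.24 under LPS (SE 0.30) and by -0.27 under LPS + Dex (SE 0.32) on the log2 scale, KO minus WT, and Ccl7 by -0.25 (SE 0.38) and -0.26 (SE 0.33). Both genes were lower in the KO among mice C, by 1.13 and 1.38 under LPS, and higher in the KO among mice B, by 0.67 and 0.52. Ccrl2 had the smallest SE, 0.14 under LPS and 0.15 under LPS + Dex, with differences of 0.04 and 0.06.

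Ccl6 was the member with the largest difference between genotypes. In untreated BMDM it was 5.86 and 7.02 log2 CPM in WT A and B and 6.78 and 7.70 in KO A and B. Under LPS it was 6.13, 6.97 and 6.14 in WT A, B and C and 6.49, 7.61 and 6.78 in KO A, B and C. With LPS + Dex the values were 6.06, 7.06 and 6.17 in WT and 6.66, 8.02 and 6.80 in KO. Mouse B of each genotype was highest, so the genotypes overlapped, but within a letter the KO mouse was higher in 8 of 8 pairs, by 0.36 to 0.96. The 3 mice of each genotype recur across the treatments, so these pairs are not independent. KO was higher in all 8 pairs for 7.72% of all genes. The difference was 0.80 untreated (SE 0.53, limma adjusted p = 0.889), 0.55 under LPS (SE 0.33, limma adjusted p = 0.803) and 0.73 under LPS + Dex (SE 0.41, limma adjusted p = 0.574).

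With the letter as a block, Ccl6 under LPS + Dex had an SE of 0.09 and a limma adjusted p of 0.0484. It was the only member among the 48 genes (0.499%) that passed there. The labels do not state this pairing of WT and KO mice for A and C. The pairing was chosen on the same expression values, so this call is not independent of that choice. The blocked limma adjusted p was 0.088 under LPS and 0.996 in untreated BMDM. Markers of other cell types were summed for the same LPS + Dex libraries. Of 10 neutrophil and granulocyte precursor markers, S100a8 and Csf3r were in the table, and their summed level under LPS + Dex was 142 to 191 CPM in WT and 203 to 231 CPM in KO. Of 6 dendritic cell markers only Itgax was in the table, at 7.60 to 18.8 CPM in WT and 5.88 to 9.84 CPM in KO. Of 5 stromal markers 4 were in the table, with sums of 94.4 to 122 CPM in WT and 105 to 145 CPM in KO. The Itgax and stromal values overlapped between the genotypes. The sums of S100a8 and Csf3r did not overlap under LPS + Dex, and neither did the values of 17.8% of all genes. They overlapped in untreated BMDM (145 to 195 CPM in WT, 184 to 203 in KO) and under LPS (157 to 210 and 209 to 232). Csf3r (6.88 to 7.69 log2 CPM over all libraries) made up most of these sums, and S100a8 was at 2.45 to 5.38. The part of these markers in the Ccl6 difference was not tested.

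**Figure D4:**
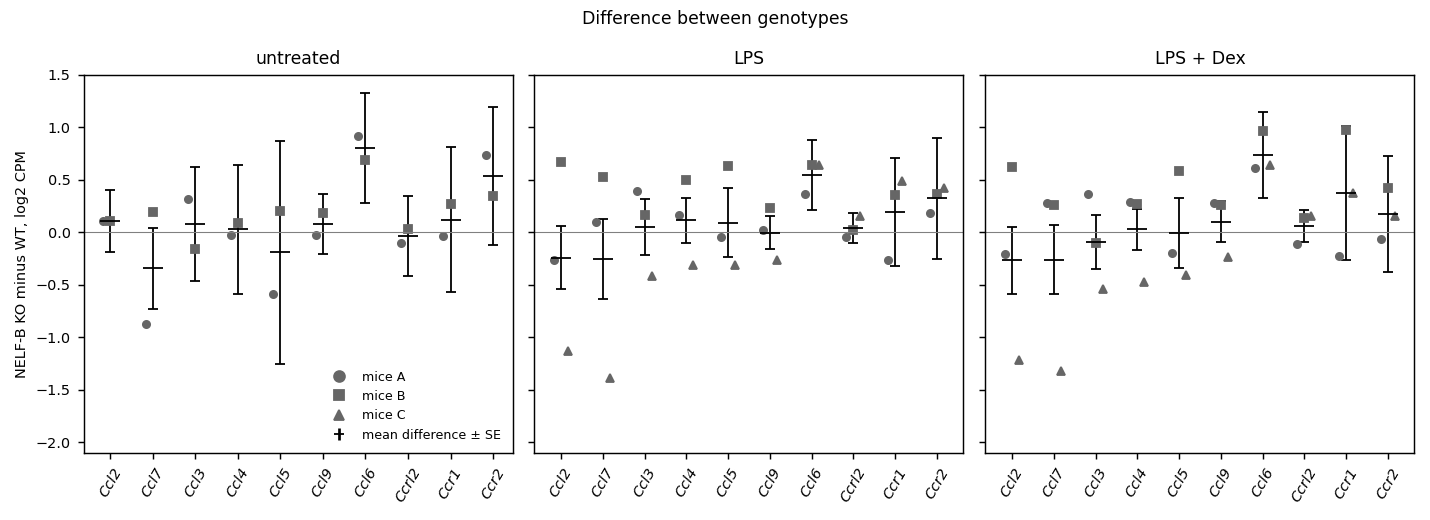
NELF-B KO minus WT (log2 CPM) for each member in untreated, LPS-treated and LPS + Dex-treated BMDM. Black bars are the mean difference ± SE of the fit without a block and grey symbols the difference between the KO and WT mouse of the same letter. Only for Ccl6 do all symbols lie above 0 in the 3 panels.

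The mice differed from each other more than the genotypes did for several members. The labels print the same date on the untreated library of WT mouse B and on the libraries of KO mouse B, so mice B of both genotypes were compared with the other mice as a description. In each of the 3 treatments both mice B were above all other mice for Ccl5, Ccl6, Ccl9, Ccr1 and Ccr2, 5 of the 10 members, against 9.26% of all genes. They were below all others for Ccrl2, as for 8.28% of all genes. Ccr1 was 3.57 and 3.93 log2 CPM in LPS-treated WT and KO mice B and 1.98 to 2.76 in the other 4 LPS libraries. Ccr2 was 2.22 and 2.58 in mice B and 0.52 to 1.17 in the others under LPS. These gaps, of 1.33 for Ccr1 and 1.498 for Ccr2 between the means, were larger than any LPS, Dex or genotype estimate of those genes. Nelfb was also highest in mouse B among the KO mice (4.21 to 4.38 log2 CPM against 3.27 to 3.53). The summed level of macrophage markers was alike, 6504 to 9027 CPM in mice B and 6273 to 9122 CPM in the others, while that of Itgax was 9.84 to 19.5 CPM in mice B and 5.88 to 17.7 CPM in the others. Whether the date, culture or animals set these levels was not tested.

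Of 26 other CC chemokine and receptor genes looked for, 5 were in the table. With LPS, 2 of the 5 rose and 1 fell in WT, where 11.8% of all genes rose and 9.11% fell, and 2 rose and 0 fell in KO, where 4.04% rose and 2.12% fell (limma). Ccl12, another CCR2 ligand, rose by 3.41 on the log2 scale in WT (SE 0.32, limma adjusted p = 0.000173) and by 3.02 in KO (SE 0.32, limma adjusted p = 0.000381), and with Dex its change was -0.20 in WT and -0.23 in KO (SE 0.27). Ccr3, known as a receptor of eosinophils, rose by 1.27 in WT and 0.87 in KO (SE 0.14 in both). With Dex it fell by 0.90 in WT (limma adjusted p = 0.00594) and by 0.84 in KO (SE 0.12 in both, limma adjusted p = 0.00672). Ccl8 had an LPS change of -0.59 in WT (SE 0.23, limma adjusted p = 0.0878), which passed, but -0.04 (SE 0.10, limma adjusted p = 0.888) without the untreated library of WT mouse A. In KO it was -0.04 (SE 0.23, limma adjusted p = 0.9996).

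Of 30 genes listed as carrying the signal of chemokine receptors, 28 were in the table. In WT 3 of them rose and 1 fell with LPS, where 11.8% of all genes rose and 9.11% fell. The median log2 change was 0.02 against 0.01 over all genes. Without the untreated library of WT mouse A, 1 rose and 1 fell, against 4.19% and 2.1% of all genes. Rgs1, which ends G protein signalling, rose by 3.28 (SE 0.17, limma adjusted p = 3.53e-06) in WT and by 3.08 in KO, where it was the only one of the list to pass. Rgs2, of the same family, fell by 1.00 with LPS in WT (SE 0.11, limma adjusted p = 0.000395) and by 0.61 with Dex (SE 0.09, limma adjusted p = 0.0112). Pik3cg and Elmo1, which act in migration downstream of chemokine receptors, passed in WT with log2 changes of 0.66 and 0.59 (SE 0.25 and 0.21, limma adjusted p = 0.0853 and 0.0807), but without the untreated library of WT mouse A these were 0.02 and 0.05 (SE 0.05 in both, limma adjusted p = 0.842 and 0.612). In KO they were 0.18 and 0.06 (SE 0.25 and 0.21). In the genotype comparisons 0 genes of either list passed in limma's test.

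The genes most like each LPS-induced ligand over the 16 libraries, by Pearson's r of log2 CPM, were as follows. All points share the 3 treatments and 6 mice, so r mostly follows the LPS step. Ccl2 was closest to Mefv (r = 0.989) and Adora2a (0.98), Ccl3 to Myc (0.991) and Ifnb1 (0.989), and Ccl4 to Il6 (0.992) and Tnf (0.991). Ccl7 was closest to Ifnb1 (0.984) and Il6 (0.982). Ccl5 had Nxpe3 (0.974) and Myc (0.967), and Ccl9 had Pmaip1 (0.977) and Samsn1 (0.968).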

How the data were processed

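BMDM RNA of 16 libraries (6 groups, 2 or 3 mice each) was polyA enriched and sequenced as paired reads on a HiSeq2500. The authors used CLC Bio Genomic Workbench to map the reads to mm10 and to count those unique to exons, scaled the counts in edgeR by a weighted trimmed mean and deposited log2 CPM for 9614 genes. The submitters' processing notes also name CASAVA 1.8 and FastQC. Versions of the other tools, the filter that left 9614 genes and the use of strand are not given in the sources used here. A further 18 deposited columns hold p-values and FDR values of the authors' own comparisons and were not used, and 0 columns of per-sample values were left out.

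Because the deposited values are log2 and not counts, they were fitted for all genes with limma 3.58.1 (R 4.3.3, lmFit and eBayes with trend), with Benjamini-Hochberg adjustment over the whole table (FDR). LPS, Dex and interaction contrasts came from a fit of the 16 libraries with the mouse as a block, in which mice C, without untreated cells, add little to the LPS contrast. KO was compared with WT in the libraries of that treatment alone, without a block. No pseudocount or filter was added. Alternatives were the block, the libraries fitted, centring, log2(CPM + 1), a mean log2 CPM above 1, voom on recovered reads, unadjusted p and leaving out each mouse. The restriction to mice A and B was chosen after seeing the data. The code was tested on simulated data. Python 3.11.15, numpy 2.4.6, pandas 2.3.3 and matplotlib 3.10.9 were used for the rest.

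The mouse numbers in the labels pair the libraries. Libraries of a mouse deviated together from their group means (r = 0.185 to 0.822 for U and LPS, 0.781 to 0.939 for LPS and LPS + Dex). WT and KO mice were joined by letter for a block. The labels print a shared date for B (in WT on the untreated library alone), for C a shared form of the library number but no shared number, and nothing shared for A, the remaining mice. The letters were used as pairs because libraries of a letter deviated together (r = 0.351 untreated, 0.443 to 0.682 under LPS, 0.482 to 0.76 under LPS + Dex). That choice came from the values that were then tested, and other pairings of WT and KO mice were not compared. With 2 untreated mice per genotype, the r of A and of B is the same by construction.

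The members and gene lists were chosen with earlier results of these data known. Named genes are the 10 members, Nelfb, the 2 genes most correlated with each LPS-induced ligand, and, at most 6 per list by size of change, called genes of 2 lists (other CC genes, receptor signalling). Arg1 and Ccr7 were added after their values were seen. A gene of the first list is not reported here. In a library 3 reads correspond to 0.0653 to 0.136 CPM, which covers counting error only.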

Additional observations from a re-analysis of the deposited data

How the results depend on the processing

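The number of members that passed was within 1.5 times of the reported one under every alternative for the LPS responses (7 or 8 of 10 in either genotype, also with mice A and B only, a choice made after seeing the data). It was less steady for Dex. For WT, 3 members passed with the mouse as a block, 0 with no replicate block and 5 with the 12 LPS and LPS + Dex libraries or an unadjusted p under 0.05, and leaving out a mouse gave 0 (without mouse C of WT) to 5 (without mouse A of WT). For KO, 2 passed, against 0 with no replicate block and 4 with the 12 libraries, voom or the unadjusted p, and leaving out a mouse gave 1 (without mouse A or B of KO) to 4 (without mouse A or B of WT). The paired fit with the letter as a replicate block called 1 member, Ccl6, for KO against WT under LPS + Dex, where the fit without it called 0, and it changed no other call of a member. For the difference in LPS response, leaving out a mouse gave 0 to 2 members. The 2, Ccl6 and Ccl7, came without mouse B of WT, when the untreated WT group is the library that stood apart and 7471 of all genes pass. Of the 1210 alternative values for single members, 1131 kept side and direction, 24 were no longer past the threshold, 27 were newly past it and 28 changed sign without a call, by more than the standard error. The cause was not tested. Counts over all genes ranged more widely, from 432 to 4982 for LPS in WT (2008 reported), 286 to 682 in KO (592), 95 to 438 for Dex in WT (249), 78 to 511 in KO (290), and 0 to 3905 untreated, 0 to 339 under LPS and 0 to 361 under LPS + Dex for the genotypes (0 in each). For the differences in response they ranged from 0 to 7471 for LPS and 0 to 27 for Dex. With 2 or 3 mice a group, the spread between mice limits the genotype comparison of Ccl2, Ccl7, Ccr1 and Ccr2.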

Other observations

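Ccl6 was not among the ligands whose nearest genes were listed, and Arg1 and Ccr7 were chosen after their values were seen. Over the 16 libraries Ccl6 was closest to Arg1 (r = 0.989), which encodes arginase 1, an enzyme of alternatively activated macrophages. Untreated, Arg1 was 1.44 and 3.64 log2 CPM in WT A and B, against 3.001 and 5.12 in KO A and B. With LPS + Dex it was 1.44, 3.59 and 1.89 in WT A, B and C, against 3.005, 6.05 and 3.02 in KO A, B and C. Mouse B was highest in both genotypes, as for Ccl6, and within each letter the KO mouse was above the WT mouse. Arg1 was picked for its likeness to Ccl6 over these same libraries, so a shared order follows from the choice. It is no separate evidence on Ccl6. The genotype difference of Arg1 was 1.52 untreated, 1.05 under LPS and 1.72 under LPS + Dex on the log2 scale (SE 1.00, 0.75 and 0.92). Limma's adjusted p was 0.889, 0.846 and 0.558. The points share mice and treatments, and r is a description of these libraries.

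Ccr7, a receptor of dendritic cells and lymphocytes that guides them to lymph nodes, was set apart by mouse as well. It was 2.18 to 3.33 log2 CPM in the 6 libraries of mice B and -1.12 to 0.52 in the other 10 libraries. Its LPS change was -0.19 in WT and 0.25 in KO (SE 0.28 in both), and limma's adjusted p was 0.585 and 0.942.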
